A study of Salvia miltiorrhiza with 5 samples.

Results

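The comparison set the RNA of *Salvia miltiorrhiza* hairy roots treated with yeast extract for 1 h (YE-1h) against that of untreated hairy roots (control), in 1 library each. Unigenes, the transcript sequences assembled from the reads without a genome, were taken where either library held 30 or more reads, which left 44647 of 55588. Within these, the unigenes that the study lists by name or class were followed: 565 in all, of which 484 had enough reads. The series also holds a later yeast extract library, taken at 12 h (YE-12h), and a pair of methyl jasmonate libraries, MeJA-1h and MeJA-6h, taken at 1 h and 6 h. Their values are set beside the main pair where they place it. All libraries came from hairy root cultures, 40 days old and grown in shake flasks. These are roots that carry genes transferred by a soil bacterium, induced here on leaf sections with *Agrobacterium* strain C58C1 (pRi A4).

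Each library mixed the RNA of 3 replicate samples, so the libraries hold no replicate check of any difference below. Intervals cover counting error only. For some of the pathway genes, the paper reports quantitative PCR on independent biological replicates, with expression patterns like those of its sequencing. Those PCR values were not used here. The control is the 0 h library of the MeJA course, with no mock treatment described and no untreated library at 1 h. Time, handling and yeast extract therefore cannot be told apart. The final concentration of yeast extract in the medium was not given in the sources used here. Gene names were known only for the listed unigenes, so the label of hairy root was not checked against root markers.

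The yeast elicitor was precipitated from yeast extract with ethanol, and plant cells react to such preparations much as they do to a microbe. The red diterpenoids of this root, the tanshinones, are built from isoprene units that arise by separate routes, the mevalonate (MVA) pathway in the cytosol and the methylerythritol phosphate (MEP) pathway in the plastid. Prenyl synthases join the units, the cyclases CPS1 and KSL1 fold the chain into miltiradiene, and cytochrome P450 enzymes (P450s) such as CYP76AH1 oxidise the product. The water-soluble phenolic acids of the same root come from phenylalanine and tyrosine, whose branches are coupled by rosmarinic acid synthase (RAS).

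Values are deposited RPKM values, in which reads are set against unigene length and library total. A fold change is the RPKM value of YE-1h over that of the control. A unigene "rose" or "fell" where the fold change passed 2 in either direction and the false discovery rate (FDR, Benjamini-Hochberg) of edgeR's binomial read test was under 0.01. That test compares 2 libraries, not 2 conditions. The YE-1h library held 19055712 counted read pairs and the control 13395770, while the other libraries held from 15789097 to 20358510. Of all unigenes tested, 3115 rose (6.98%) and 2222 fell (4.98%), and the median log2 fold change was -0.14. TMM scaling, which sets the libraries level by their bulk of unigenes, raised every log2 fold change by 0.15. Under it 3746 rose (8.39%) and 1531 fell (3.43%), so that rises were 71.0% of the calls, against 58.4% under library totals. At YE-1h 37.6% of the tested unigenes were higher than in the control, 50.1% under TMM.

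The tanshinone pathway was higher at YE-1h almost throughout. The study lists 66 unigenes under 26 gene names for it, assembled and annotated from these same libraries, and 61 had enough reads. Of these, 49 rose and 1 fell, with a median log2 fold change of 1.24, and under TMM 53 rose and 1 fell. In sum the 66 unigenes held 18930 reads per 1000000 counted (RPM) at YE-1h, against 6900 RPM in the control. With an assumed coefficient of variation of 0.2 between libraries edgeR's exact test gave 16 rises, and with 0.4 it gave 0.

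**Figure D1:**
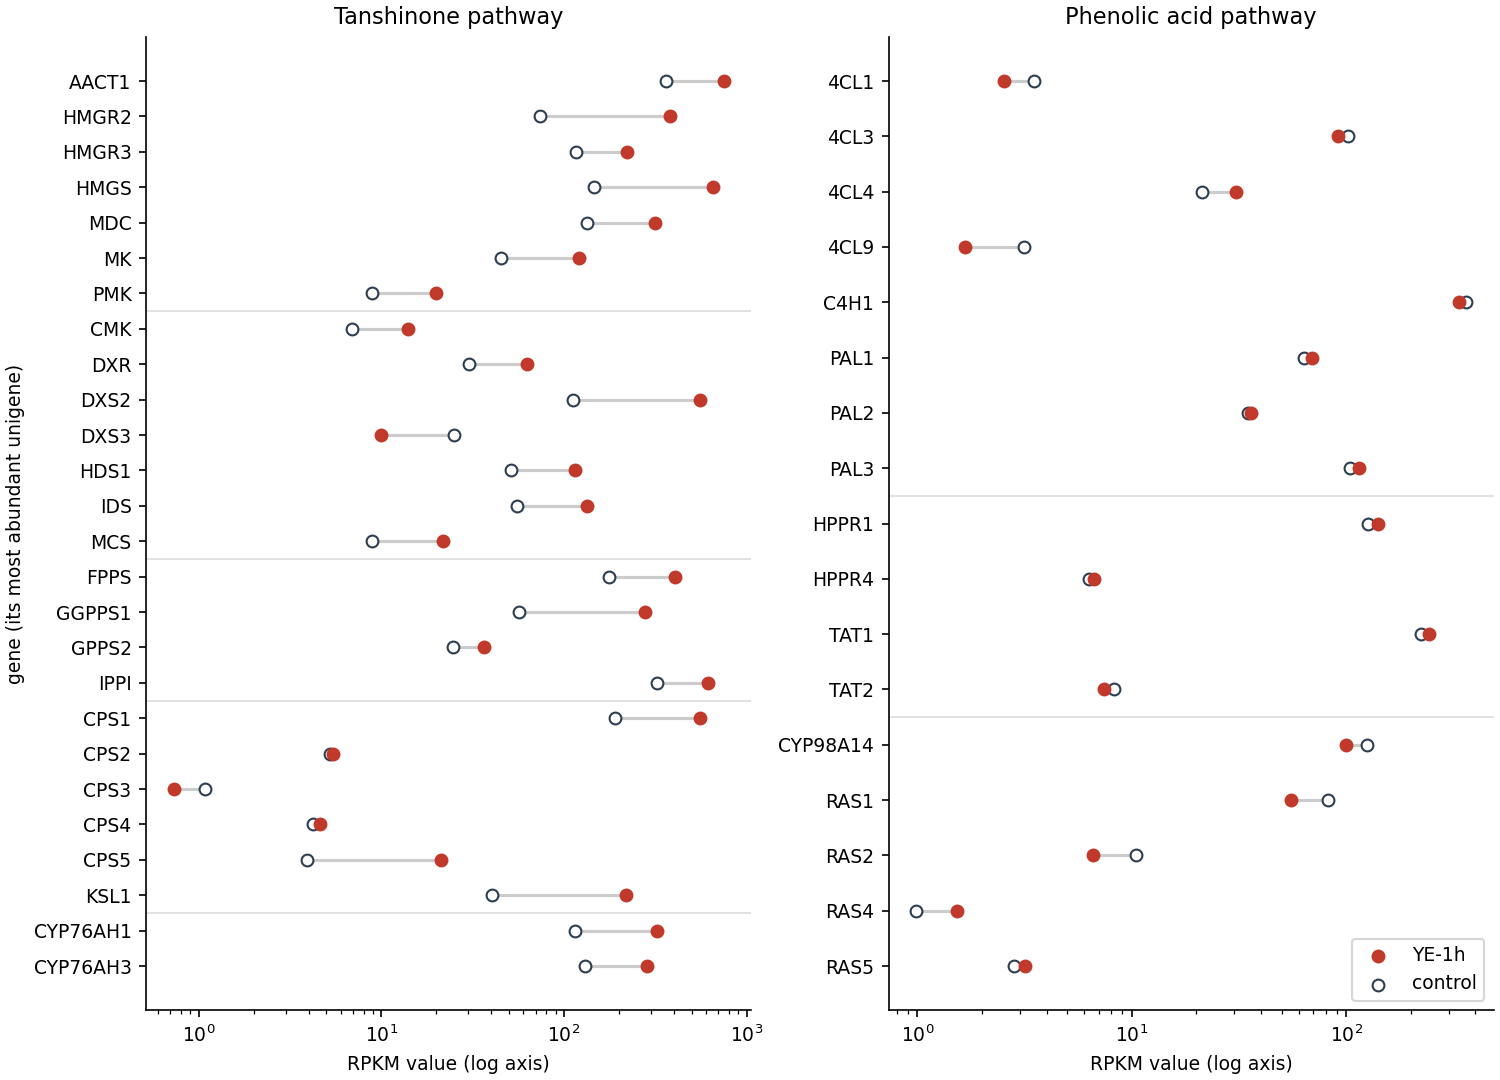
RPKM values (log axes) of the most abundant unigene of each gene at YE-1h (filled red) and in the control (open), with tanshinone genes on the left and phenolic acid genes on the right, in the order of the pathways. *DXS2* stood at 553 RPKM at YE-1h and 112 RPKM in the control, whereas most phenolic acid genes show nearly coincident points.

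For genes that mark the course of the pathway, the study's primers for quantitative PCR are printed here as the stretches by which it recognised each transcript. They are designed oligonucleotides, 5′ to 3′, for the entry enzyme of the plastid route, the prenyl synthase, the second cyclase and, from the phenolic acid pathway, the entry enzyme. Whether they lie in the unigenes of the same name was not tested.
DXS2 forward: ttggagattgggaagggaaggat
DXS2 reverse: aggcttgcagaatctcgcatcag
GGPPS1 forward: gctgtgctcgcaggggatg
GGPPS1 reverse: atcgccggtgcagttcagg
KSL1 forward: gtgtgacccttctgctagca
KSL1 reverse: tgcattgtcttgggaagatg
PAL1 forward: tacctcgtcgccctatgccaag
PAL1 reverse: attgacgcccattgtgagagtt

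All 21 MVA unigenes were higher at YE-1h, 19 of them rose, and under TMM all 21 rose. *HMGR2* encodes HMG-CoA reductase, the main control point of the pathway, and its most abundant unigene (SmiContig32425) had 382 RPKM at YE-1h and 73.6 RPKM in the control, a rise of 5.19-fold (95% interval 4.99 to 5.40). The 3 *HMGR2* unigenes ran from 1.94-fold to 5.19-fold, and summed they were 3.30-fold higher at YE-1h. *HMGS* (SmiContig18784), which makes the substrate of HMG-CoA reductase, had 654 RPKM at YE-1h and 146 RPKM in the control and rose 4.49-fold. These were the steps with the largest changes among abundant MVA unigenes. The other names differed by smaller factors. *AACT1* (SmiContig13417), the acetoacetyl-CoA thiolase that opens the pathway, had 747 RPKM at YE-1h and 360 RPKM in the control, 2.07-fold. Mevalonate kinase *MK* (SmiContig5870) had 121 RPKM at YE-1h and 45.1 RPKM in the control, 2.68-fold. The next kinase, *PMK* (SmiContig30554), had 19.9 RPKM at YE-1h and 8.87 RPKM in the control, 2.24-fold, and its 10 unigenes all rose, by 2.18-fold to 7.19-fold. The decarboxylase *MDC* (SmiContig28339) had 316 RPKM at YE-1h and 134 RPKM in the control, 2.36-fold. *HMGR3* (SmiContig24924) had 222 RPKM at YE-1h and 116 RPKM in the control. At 1.92-fold it passed the fold threshold only under TMM, as did the *HMGR2* unigene c25126_Sye-1h_g2_i1 at 1.94-fold under library totals.

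Rare unigenes of the same genes, named after their values were seen, included larger fold changes. For *MDC*, SmiContig6174 had 200 reads at YE-1h and 14 reads in the control, a 9.73-fold rise (5.85 to 18.7), and SmiContig28300 had 56 reads at YE-1h and 6 reads in the control, 6.58-fold (2.83 to 18.6). For *MK*, c925_Sye-1h_g1_i1 had 39 reads at YE-1h and 2 reads in the control, a ratio of 14.0 with a counting interval of 3.55 to 117. For *PMK*, c9683_Sye-1h_g1_i1 had 46 reads at YE-1h and 4 reads in the control, 7.19-fold (2.95 to 30.9). Whether such unigenes share sequence with the abundant ones of the same name was not tested, and how reads matching several unigenes were divided is not given in the sources used here. Summed over all unigenes of a gene, *MDC* was 2.40-fold, *MK* 2.71-fold and *PMK* 2.39-fold higher at YE-1h, close to their abundant members.

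In the MEP pathway 17 of 18 unigenes rose and 1 fell, under library totals and under TMM alike. The step that opens the pathway held both extremes among the well-read unigenes. *DXS2* (SmiContig21878), a deoxyxylulose phosphate synthase, had 553 RPKM at YE-1h and 112 RPKM in the control and rose 4.95-fold (4.79 to 5.12). *DXS3* (SmiContig8568), a second gene of that name, had 482 reads at YE-1h and 851 reads in the control. It fell to 0.40 of the control (0.36 to 0.45) and was the single tanshinone unigene to fall. The later enzymes rose by 2.02-fold to 2.48-fold, apart from a rare unigene of *HDS1* (SmiContig34251, named after its values were seen) with 128 reads at YE-1h and 12 reads in the control, 7.51-fold (4.15 to 14.9). By the most abundant unigene, the reductoisomerase *DXR* (SmiContig13234) had 62.5 RPKM at YE-1h and 30.3 RPKM in the control, 2.06-fold. The kinase *CMK* (SmiContig31979) had 14.0 RPKM at YE-1h and 6.95 RPKM in the control. Its fold change of 2.02 passed the threshold, but not with 1 RPKM added to both libraries. The cyclodiphosphate synthase *MCS* (c20596_Smj-6h_g1_i3) had 21.8 RPKM at YE-1h and 8.86 RPKM in the control, 2.47-fold. *HDS1* (c21578_Smj-0h_g2_i1), the enzyme after it, had 115 RPKM at YE-1h and 51.2 RPKM in the control, 2.25-fold. The last enzyme, *IDS* (SmiContig18288), had 134 RPKM at YE-1h and 55.4 RPKM in the control, 2.42-fold. Every listed step of the route thus held a rise.

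The prenyl diphosphate steps differed from each other. *GGPPS1* (SmiContig27610), which makes the precursor of diterpenoids, had 276 RPKM at YE-1h and 56.6 RPKM in the control, a rise of 4.87-fold (4.58 to 5.17). *FPPS* (SmiContig27663), which makes the precursor of sterols and sesquiterpenoids, had 406 RPKM at YE-1h and 177 RPKM in the control and rose 2.29-fold (2.23 to 2.36). The counting intervals of these synthases did not overlap, but they do not cover the spread between cultures. The isomerase *IPPI* (SmiContig12363), which interconverts the isoprene units, had 611 RPKM at YE-1h and 323 RPKM in the control, 1.90-fold, and passed only under TMM. *GPPS2*, which is listed as a geranyl diphosphate synthase, was not called under either scaling. Its most abundant unigene (SmiContig11755) had 36.6 RPKM at YE-1h and 24.8 RPKM in the control, 1.47-fold, beside 614 RPKM at MeJA-1h.

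Of the diterpene cyclases, 6 of 11 unigenes with enough reads rose, and all 6 belonged to *CPS1*, *CPS5* and *KSL1*. *CPS1*, which makes copalyl diphosphate on the way to tanshinones, had an abundant unigene (SmiContig26967) with 556 RPKM at YE-1h and 190 RPKM in the control, 2.93-fold, and another (SmiContig19468) with 473 RPKM at YE-1h and 121 RPKM in the control, 3.91-fold. *KSL1* (SmiContig32378), which turns that product into miltiradiene, had 218 RPKM at YE-1h and 40.4 RPKM in the control, 5.40-fold (5.08 to 5.75). Its second unigene (c22080_Smj-6h_g1_i2) had 133 RPKM at YE-1h and 20.3 RPKM in the control, 6.58-fold (5.78 to 7.52). *KSL1* therefore stood above *CPS1* in fold change between these libraries, with counting intervals that did not overlap, while its level per length stayed lower. *CPS5* (SmiContig26570), a further copalyl diphosphate synthase, had 21.3 RPKM at YE-1h and 3.94 RPKM in the control, 5.42-fold (4.51 to 6.56). *CPS2* and *CPS4*, of the same enzyme class, had no call. The most abundant *CPS2* unigene (c21908_Smj-1h_g1_i1) had 5.43 RPKM at YE-1h and 5.24 RPKM in the control, 1.04-fold (0.77 to 1.40). *CPS4* (c22650_Smj-1h_g3_i1) had 4.62 RPKM at YE-1h and 4.20 RPKM in the control, 1.10-fold (0.76 to 1.63). All 5 *CPS3* unigenes were under the read minimum, the most abundant (SmiContig11803) with 13 reads at YE-1h and 13 reads in the control.

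The P450s that act on miltiradiene rose by less than its cyclase *KSL1*. *CYP76AH1*, the ferruginol synthase, had its most abundant unigene (c21531_Smj-6h_g1_i1) at 321 RPKM at YE-1h and 115 RPKM in the control, 2.79-fold (2.68 to 2.91). *CYP76AH3* (SmiContig31867), which oxidises ferruginol further, had 283 RPKM at YE-1h and 131 RPKM in the control, 2.16-fold (2.07 to 2.25). All 6 unigenes of these genes were highest at YE-12h among the 5 libraries, with 537 RPKM for c21531_Smj-6h_g1_i1. By contrast both *KSL1* unigenes were highest at YE-1h, and SmiContig32378 stood at 84.4 RPKM at YE-12h. Pairs of unigenes under these P450 names carry a second label in the study's lists: SmiContig4954 and SmiContig22538 stand among the MYB-related transcription factors, and c21531_Smj-6h_g1_i1 and c22489_Smj-1h_g1_i4 among the P450s as CYP76C2. Their values are counted in each list.

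The phenolic acid pathway showed no call under library totals. Of 37 unigenes under 17 gene names, 32 had enough reads, 0 rose and 0 fell, with 17 higher and 15 lower and a median log2 fold change of 0.07. Over all tested unigenes 6.98% rose and 4.98% fell, and under TMM 8.39% rose and 3.43% fell. With 32 unigenes such shares amount to few calls, and the counts were not tested against them. Together the 37 unigenes held 4161 RPM at YE-1h, against 4190 RPM in the control. Under TMM 2 rare unigenes rose, a *TAT2* unigene (c21289_Smj-1h_g1_i4) with 39 reads at YE-1h and 11 reads in the control and a *4CL4* unigene (c19046_Sye-12h_g1_i1) with 299 reads at YE-1h and 115 reads in the control. Those were named after their values were seen.

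In the entry steps, phenylalanine ammonia-lyase *PAL1* (c17597_Sye-12h_g1_i1) had 69.1 RPKM at YE-1h and 63.7 RPKM in the control, 1.08-fold. *PAL2* (c19397_Smj-0h_g1_i2) had 36.1 RPKM at YE-1h and 34.6 RPKM in the control, 1.04-fold (0.96 to 1.13). *PAL3* (SmiContig5613) had 115 RPKM at YE-1h and 104 RPKM in the control, 1.10-fold. The 10 *PAL* unigenes thus lay between 1.04-fold and 1.30-fold. Cinnamate 4-hydroxylase *C4H1* (SmiContig7266) had 337 RPKM at YE-1h and 362 RPKM in the control, 0.93-fold, a direction that turned under TMM (log2 fold change of 0.04). The 4-coumarate CoA ligases differed in direction. *4CL3* (SmiContig31406) had 91.2 RPKM at YE-1h and 102 RPKM in the control, 0.90-fold. *4CL4* (SmiContig5535) had 30.8 RPKM at YE-1h and 21.2 RPKM in the control, 1.45-fold (1.30 to 1.61). *4CL9* (SmiContig10447) had 1.67 RPKM at YE-1h and 3.14 RPKM in the control, 0.53-fold (0.38 to 0.77), and *4CL1* (SmiContig25308) had 2.54 RPKM at YE-1h and 3.48 RPKM in the control, 0.73-fold (0.53 to 1.01). None of these passed the threshold.

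In the tyrosine branch, the aminotransferase *TAT1* (SmiContig5984) had 242 RPKM at YE-1h and 223 RPKM in the control, 1.09-fold. Its paralog *TAT2* (SmiContig12929) had 7.38 RPKM at YE-1h and 8.23 RPKM in the control, 0.90-fold. The reductases after it, *HPPR1* (SmiContig6005) with 140 RPKM at YE-1h and 126 RPKM in the control and *HPPR4* (SmiContig11161) with 6.67 RPKM at YE-1h and 6.28 RPKM in the control, were 1.11-fold and 1.06-fold. The coupling steps lay lower. *RAS1* (c17386_Smj-1h_g1_i1) had 55.1 RPKM at YE-1h and 81.8 RPKM in the control, 0.67-fold (0.63 to 0.72), and its 4 unigenes lay between 0.66-fold and 0.69-fold. *RAS2* (SmiContig29424) had 6.58 RPKM at YE-1h and 10.4 RPKM in the control, 0.63-fold (0.52 to 0.77). *CYP98A14* (SmiContig18049), the hydroxylase that finishes rosmarinic acid, had 99.2 RPKM at YE-1h and 125 RPKM in the control, 0.80-fold (0.76 to 0.83). Of 7 coupling unigenes with enough reads 6 were lower at YE-1h under both scalings, 4 of them from *RAS1*, and none passed 2-fold. For comparison, 27878 of all 44647 tested unigenes were lower under library totals and 22258 under TMM. The exception was *RAS5* (c23133_Smj-1h_g1_i3) with 45 reads at YE-1h and 28 reads in the control, 1.12-fold (0.69 to 1.88). Both *RAS4* unigenes were under the minimum, the more abundant (SmiContig8939) with 29 reads at YE-1h and 13 reads in the control.

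**Figure D2:**
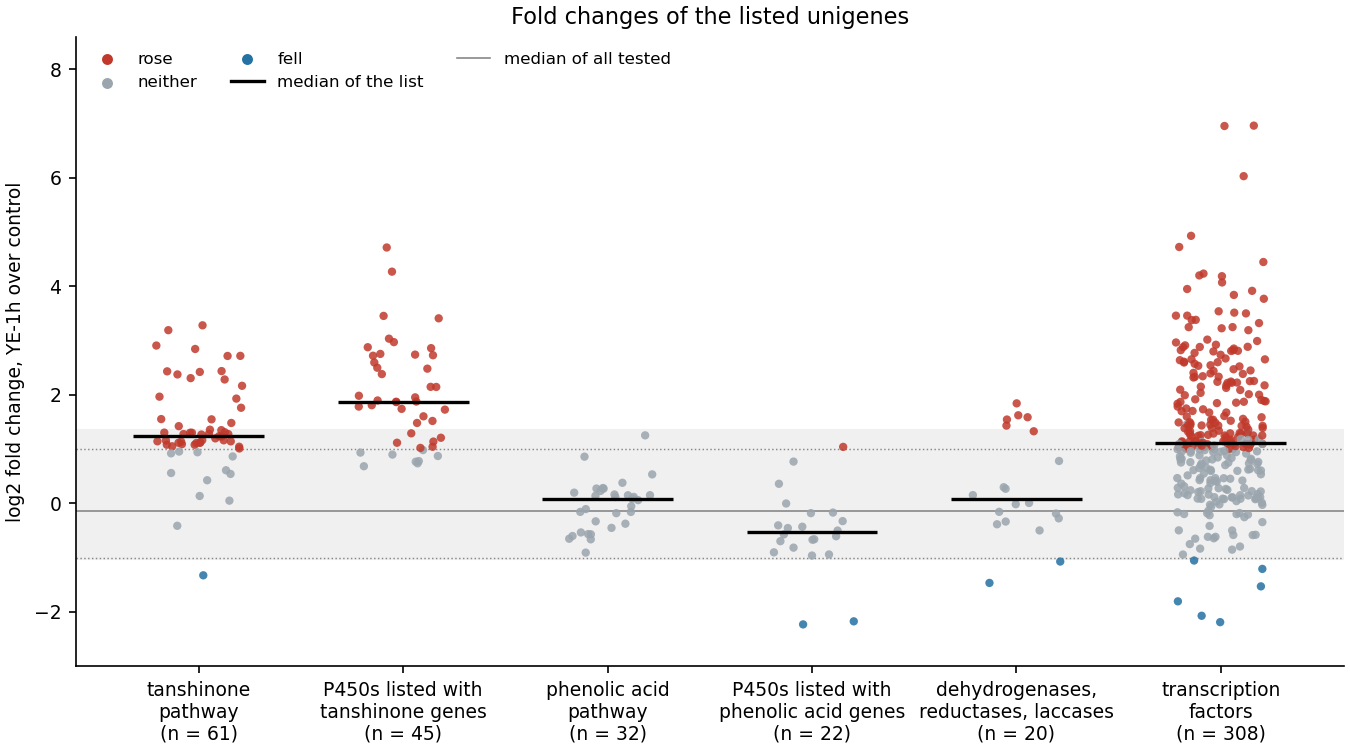
Log2 fold change of YE-1h over control for each unigene with enough reads, by list, in red where it rose, blue where it fell and grey otherwise. Black bars are list medians, the grey line and band the median and the 5th to 95th percentile of all tested unigenes, and dotted lines 2-fold. The median is 1.24 for the tanshinone pathway and 0.07 for the phenolic acid pathway.

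P450s form a large family of oxidases. From those raised by an elicitor, the study listed the ones whose profile over these libraries followed a named tanshinone or phenolic acid gene. The class name is that of the closest known P450, mostly of Arabidopsis. Because the lists were drawn from the same libraries, by a rise and by profile, their directions are no independent evidence. Of 45 unigenes listed with *KSL1*, *CPS1* or *CYP76AH1*, all had enough reads and all were higher at YE-1h. In number 37 rose, 41 under TMM, and none fell (0 under either scaling), with a median log2 fold change of 1.87 beside -0.14 over all tested. With an assumed coefficient of variation of 0.2 between libraries edgeR's exact test gave 26 rises, and with 0.4 it gave 2. Fold changes over 4 were seen in 18, and in 2.6% of all tested unigenes, which were not chosen for a rise.

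The size of the rise followed the gene with which a P450 was listed. The groups were chosen by profile over these same libraries, so this order and the library of the highest level are no separate result. All 19 listed with *KSL1* rose (median log2 fold change 2.74). The 17 of them with more than 3 control reads rose by 2.03-fold to 26.3-fold, and the other pair, of the CYP93D1 class, had 0 and 1 control reads. All 13 listed with *CPS1* rose, by 3.31-fold to 6.75-fold (median 2.15). Of 16 listed with *CYP76AH1*, 8 rose (12 under TMM), by no more than 3.04-fold (median 1.01), and all 16 were highest at YE-12h. With *KSL1*, all 19 were highest at YE-1h.

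Among those with *KSL1*, the CYP72A10-class SmiContig30503 had 45.7 RPKM at YE-1h and 1.74 RPKM in the control, 26.3-fold (19.4 to 37.6), and stood at 9.28 RPKM at YE-12h. The CYP716A1-class c20619_Smj-6h_g1_i1, of a family that holds triterpenoid oxidases, had 124 RPKM at YE-1h and 6.45 RPKM in the control, 19.3-fold (16.4 to 23.0). The CYP71A22-class c22353_Smj-1h_g1_i6 had 98.1 RPKM at YE-1h and 8.95 RPKM in the control, 10.97-fold (9.14 to 13.3). The CYP716A1 class held a second unigene (SmiContig30710) with almost the same level at YE-1h. It had 125 RPKM at YE-1h and 19.0 RPKM in the control, 6.59-fold, and was named after its values were seen. The smallest rises with *KSL1* were those of the CYP72A15-class SmiContig21098, with 97.7 RPKM at YE-1h and 48.1 RPKM in the control, 2.03-fold, and of the CYP71B23-class SmiContig22875, with 472 RPKM at YE-1h and 141 RPKM in the control, 3.35-fold. Reads were few for the CYP93D1 class, named after its values were seen. Its c31413_Sye-1h_g1_i1 had 35 reads at YE-1h and 0 in the control, at least 8.20-fold higher at a floor of 3 reads, and c26934_Sye-1h_g1_i1 had 31 reads at YE-1h and 1 in the control, a ratio of 14.8 (3.63 to 888).

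The most abundant P450 of the list at YE-1h was listed with *CPS1*. This CYP71B2-class unigene (SmiContig29966) had 1044 RPKM at YE-1h and 315 RPKM in the control, 3.31-fold (3.23 to 3.39). The largest rises of that group were in the CYP71B37 class. SmiContig23197, listed with *KSL1* too, had 356 RPKM at YE-1h and 52.7 RPKM in the control, 6.75-fold, and c25083_Sye-1h_g1_i1 had 357 RPKM at YE-1h and 53.9 RPKM in the control, 6.64-fold. The CYP72A15-class c21528_Sye-1h_g1_i1 had 98.0 RPKM at YE-1h and 16.2 RPKM in the control, 6.05-fold. The 4 CYP71B37 unigenes differed little, from 5.59-fold to 6.75-fold, at 356 to 398 RPKM at YE-1h. The CYP72A7-class c20678_Smj-0h_g1_i1 was among the smallest rises with *CPS1*, at 154 RPKM at YE-1h and 44.8 RPKM in the control, 3.44-fold.

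With *CYP76AH1*, the CYP76C2-class c20662_Sye-1h_g1_i2 changed most. It had 24.6 RPKM at YE-1h and 8.08 RPKM in the control, 3.04-fold (2.21 to 4.38), and 81.1 RPKM at YE-12h. The CYP714A1-class SmiContig20596, of a family of gibberellin-deactivating enzymes, had 14.6 RPKM at YE-1h and 5.09 RPKM in the control, 2.87-fold. The CYP71Y10-class SmiContig17929 had 65.4 RPKM at YE-1h and 40.7 RPKM in the control, 1.61-fold, and the CYP71B35-class c19964_Smj-1h_g1_i2 had 43.7 RPKM at YE-1h and 26.2 RPKM in the control, 1.67-fold. These were the smallest differences in the group, and neither was called.

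**Figure D3:**
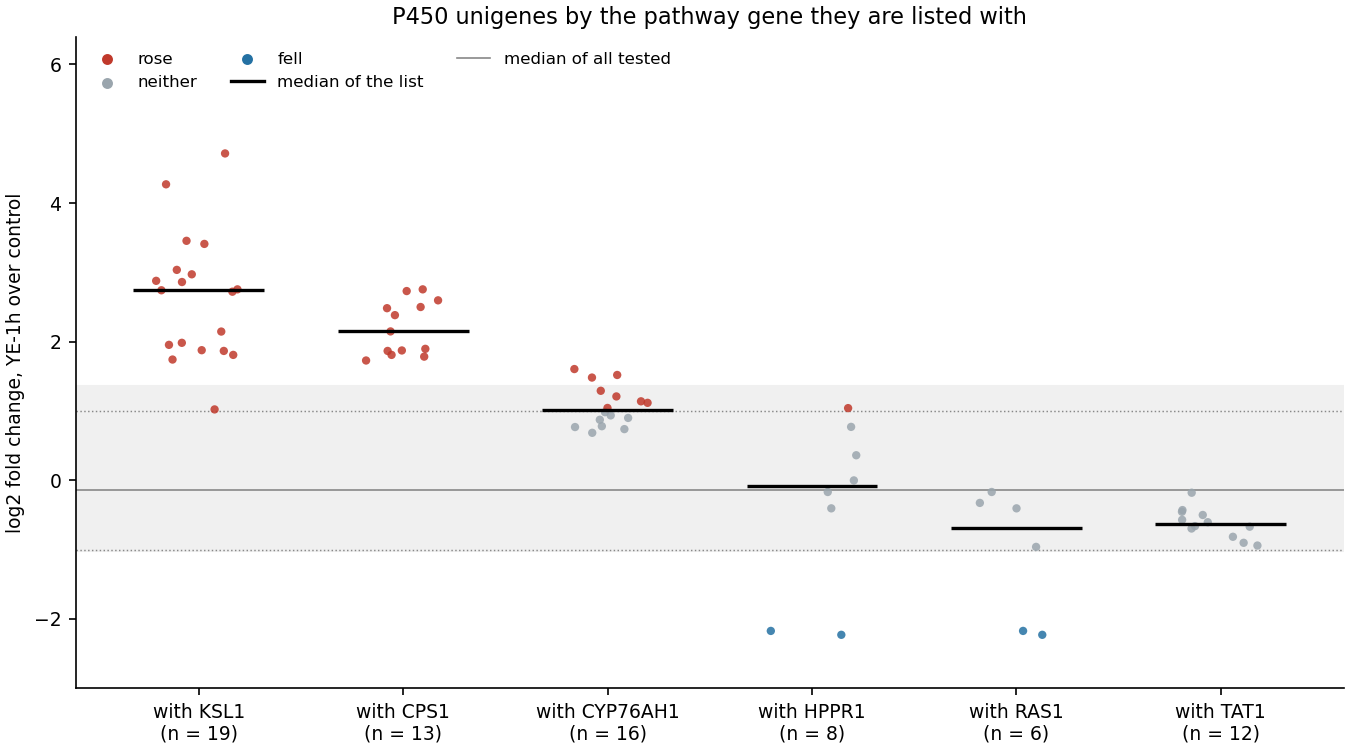
Log2 fold change of YE-1h over control for P450 unigenes with enough reads, by the pathway gene with which the study listed them (a unigene may stand in more than 1 column), with colours, bars, line and band as for the lists. All 19 points with *KSL1* and all 13 with *CPS1* are red, and 19 of the 22 listed with phenolic acid genes are below 0.

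P450s listed with phenolic acid genes were mostly lower. Of 26, 22 had enough reads, of which 1 rose (4.55%) and 2 fell (9.09%), with 19 lower and a median log2 fold change of -0.54 (-0.39 under TMM, with 18 lower). Over all 44647 tested unigenes 6.98% rose and 4.98% fell, so the numbers of calls were near those shares. Of all tested, 27878 were lower under library totals and 22258 under TMM. Both falls were in the CYP81D1 class. SmiContig7745 had 4.63 RPKM at YE-1h and 20.9 RPKM in the control, 0.22-fold (0.18 to 0.27), and c18925_Smj-6h_g1_i2 had 4.42 RPKM at YE-1h and 20.7 RPKM in the control, 0.21-fold (0.18 to 0.26). At YE-12h these unigenes stood at 29.7 RPKM and 28.0 RPKM, above the control. Their levels were close in all libraries, and whether they were counted from shared reads was not tested. The single rise was the CYP81F3-class SmiContig30417, with 10.7 RPKM at YE-1h and 5.19 RPKM in the control, 2.06-fold (1.62 to 2.66), lost with 1 RPKM added to both libraries. Next to it in order, the CYP81D3-class SmiContig2465 had 15.7 RPKM at YE-1h and 9.19 RPKM in the control, 1.71-fold. Among the 22 unigenes with enough reads, family CYP81 thus held the largest fold changes in both directions.

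The CYP72A10 class appears in both P450 lists. Those were drawn by profile over these libraries, so a difference in direction between them is partly built in. The 4 CYP72A10 unigenes listed with *TAT1* lay between 0.57-fold and 0.71-fold and were not called. Among them SmiContig31869 had 6.17 RPKM at YE-1h and 10.9 RPKM in the control. SmiContig30503, listed with *KSL1*, rose 26.3-fold. Whether these are copies of 1 gene family in this plant was not tested. The CYP98A3-class c20834_Smj-6h_g2_i1 had 3776 reads at YE-1h and 3331 reads in the control, nearly the same reads as *CYP98A14*, 0.80-fold. A CYP79B3-class unigene (c21609_Smj-1h_g1_i1), named after its values were seen, had 1 read at YE-1h and 9 reads in the control, a ratio of 0.078 (0.0018 to 0.56), and both CYP716A2-class unigenes had 0 reads in either library.

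Among 20 candidates that the study proposed for later steps, 6 rose and 2 fell. The shares over all tested unigenes were 6.98% for rises and 4.98% for falls, and the counts were not tested against them. The paper found the dehydrogenases and reductases by sequence identity and reports them all as higher after MeJA or YE in these libraries. Their rises at YE-1h therefore partly restate that report. Of 7 dehydrogenases, proposed for tanshinones, 5 rose by 2.51-fold to 3.08-fold. SmiContig29955 had 10.2 RPKM at YE-1h and 3.29 RPKM in the control, 3.08-fold (2.40 to 4.10), and SmiContig29584 had 9.49 RPKM at YE-1h and 3.16 RPKM in the control. SmiContig20215 had 18.6 RPKM at YE-1h and 6.90 RPKM in the control, 2.70-fold. The remaining rises were those of c16637_Smj-1h_g1_i2 (2.92-fold) and SmiContig29586 (2.51-fold). SmiContig26874 had 3.67 RPKM at YE-1h and 2.13 RPKM in the control, 1.72-fold. SmiContig32840, the most abundant dehydrogenase in both libraries, had 30.0 RPKM at YE-1h and 33.4 RPKM in the control, 0.90-fold. Of 6 reductases only SmiContig32802 was called, with 171 RPKM at YE-1h and 47.8 RPKM in the control, 3.59-fold (3.32 to 3.88). Its neighbour in the list, SmiContig32803, had 144 RPKM at YE-1h and 129 RPKM in the control, 1.11-fold. The other reductases (c4200_Smj-1h_g1_i1, SmiContig16951, c23543_Smj-1h_g1_i2 and SmiContig6622) lay between 0.77-fold and 0.99-fold, SmiContig6622 with 58.4 RPKM at YE-1h and 59.0 RPKM in the control, whose direction turned under TMM (log2 fold change of 0.13).

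Laccases are copper oxidases proposed to couple phenolic acids. All 4 of class 1A were lower at YE-1h under both scalings. Of all 44647 tested unigenes, 27878 were lower under library totals and 22258 under TMM. SmiContig4158 had 22.8 RPKM at YE-1h and 62.9 RPKM in the control, 0.36-fold (0.33 to 0.40), and fell under both scalings. SmiContig4159 had 44.3 RPKM at YE-1h and 93.1 RPKM in the control, 0.48-fold, and fell under library totals only. The class 1A unigenes c22112_Smj-6h_g1_i1 and SmiContig23578 were 0.71-fold and 0.88-fold, and SmiContig23578 had a log2 fold change of -0.04 under TMM. The 3 of class 2 (SmiContig18382, SmiContig8962 and SmiContig6627) were within 1.23-fold of the control, SmiContig18382 with 139 RPKM at YE-1h and 113 RPKM in the control. No laccase rose.

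Transcription factors were listed by the study because they responded to an elicitor in these libraries, so a high share of rises is built into the list. Of 375 unigenes, 308 had enough reads, 170 rose and 6 fell, with a median log2 fold change of 1.12. Under TMM 191 rose and 4 fell. Over all tested unigenes, which were not chosen for a response, 6.98% rose and 4.98% fell, and under TMM 8.39% rose and 3.43% fell. These shares also stand beside the family counts below. With an assumed coefficient of variation of 0.2 the rises numbered 95, and with 0.4 they numbered 9. Families differed widely in this comparison, but a unigene could enter the list through either elicitor. The paper reports more bHLH members raised by methyl jasmonate only than by yeast extract only, and the reverse for WRKY. The order of the families thus partly restates that choice, and the shares are set side by side without a test. Heat shock factors (HSF) had the highest median of the families with 9 or more such unigenes, at 2.55, followed by WRKY at 2.17 and AP2-EREBP at 1.67. The bHLH family was lowest of them, at 0.25.

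**Figure D4:**
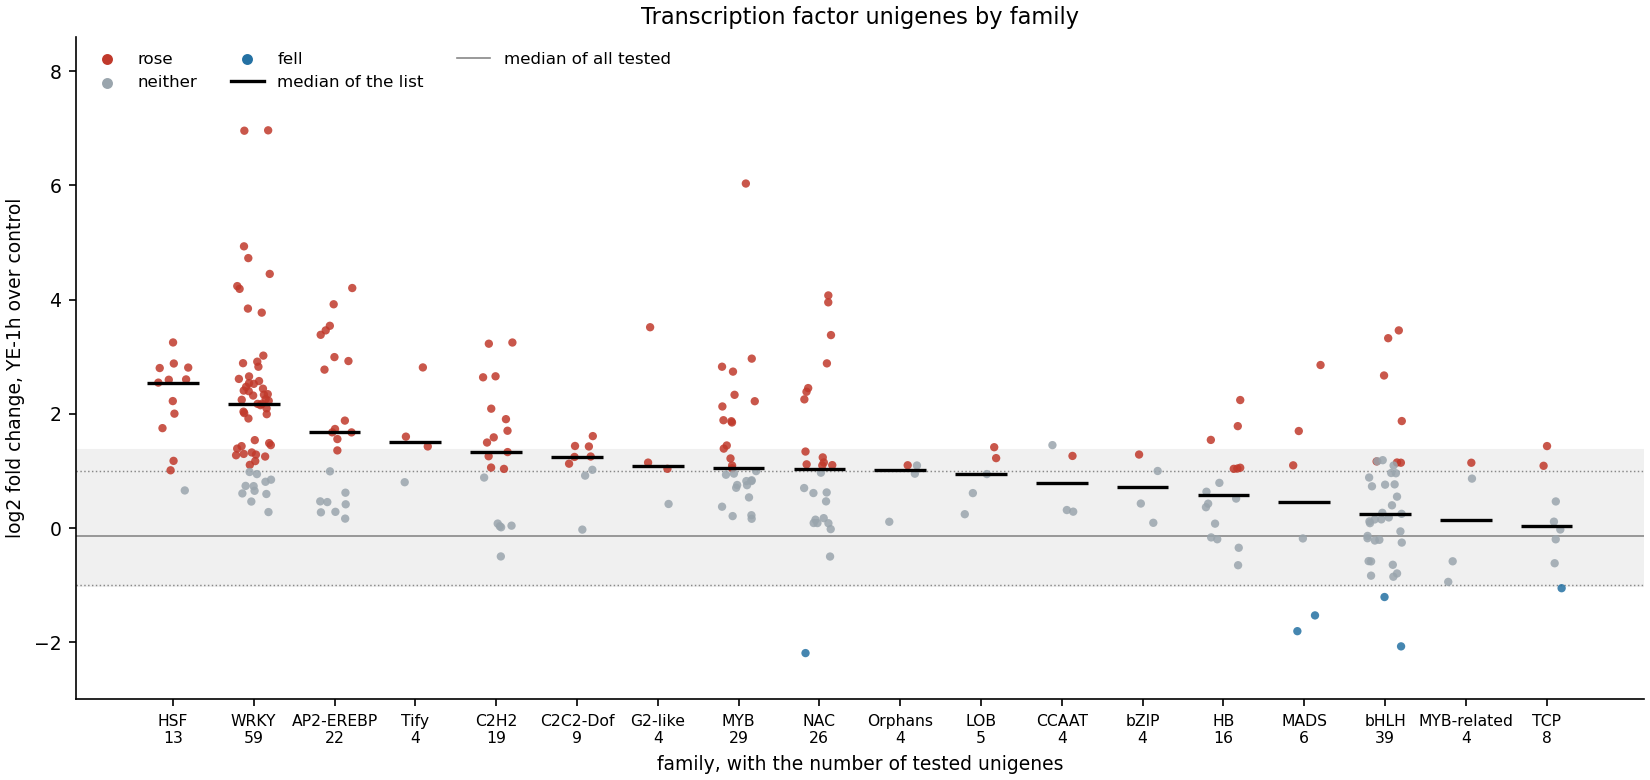
Log2 fold change of YE-1h over control for listed transcription factor unigenes with enough reads, in families with 4 or more, ordered by family median, with colours, bars, line and band as for the lists. In HSF 12 of 13 points are red, in WRKY 48 of 59 and in bHLH 7 of 39.

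WRKY factors bind W-box elements and are best known from responses to microbes. All 59 were higher at YE-1h, 48 rose (50 under TMM), 34 by more than 4-fold and 10 by more than 8-fold. For comparison, 2.6% and 0.95% of all tested unigenes passed those folds. Near absence in the control marked the leading pair. SmiContig29175 had 1764 reads at YE-1h and 10 reads in the control, which is 74.6 RPKM at YE-1h and 0.601 RPKM in the control, a rise of 124-fold (67.3 to 259). SmiContig31623 had 532 reads at YE-1h and 3 reads in the control, a ratio of 125 (42.4 to 606). The third, SmiContig29648, had 82.8 RPKM at YE-1h and 2.71 RPKM in the control, 30.5-fold (23.5 to 40.7). All 3 were lower in every other library. SmiContig29175 had 1.73 RPKM at YE-12h, 1.53 RPKM at MeJA-1h and 4.77 RPKM at MeJA-6h, and SmiContig29648 had 10.6 RPKM at YE-12h, 3.13 RPKM at MeJA-1h and 1.78 RPKM at MeJA-6h. Of the 59, 42 were highest at YE-1h, 14 at MeJA-1h, 3 at MeJA-6h and 0 at YE-12h. Of all 44647 tested unigenes, 10851 (24.3%) were highest at YE-1h, 4532 at MeJA-1h, 6025 at MeJA-6h and 5999 at YE-12h. Those numbers also stand beside the counts of the families below, all from a list chosen for a response in these libraries. Together they held 3775 RPM at YE-1h, against 889 RPM in the control.

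HSF proteins switch on chaperone genes under heat and other stresses. Of 13 with enough reads all were higher and 12 rose, 9 by more than 4-fold. In c20340_Sye-12h_g1_i3 the level was 24.6 RPKM at YE-1h and 2.59 RPKM in the control, 9.51-fold (7.40 to 12.7). SmiContig28393 had 29.8 RPKM at YE-1h and 4.05 RPKM in the control, 7.36-fold, and c22054_Sye-1h_g2_i1 had 34.7 RPKM at YE-1h and 4.95 RPKM in the control, 7.01-fold. That last unigene was also high in the other elicited libraries, with 26.1 RPKM at YE-12h, 28.2 RPKM at MeJA-1h and 20.3 RPKM at MeJA-6h. In total 11 of the 13 were highest at YE-1h.

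AP2-EREBP factors include the ethylene response factors. Of 22 with enough reads 14 rose (15 under TMM). Isoform-like unigenes c20376_Sye-1h_g1_i1 and c20376_Sye-1h_g1_i2 rose most, the first with 42.2 RPKM at YE-1h and 2.29 RPKM in the control, 18.4-fold (13.5 to 26.5), and the second with 25.8 RPKM at YE-1h and 1.71 RPKM in the control, 15.1-fold (10.5 to 22.4). They share a component name, so they are not separate evidence. The unigene c22694_Smj-1h_g2_i1, matched by the study to Arabidopsis ERF-1, had 26.9 RPKM at YE-1h and 2.31 RPKM in the control, 11.6-fold (7.79 to 19.8), beside 22.2 RPKM at MeJA-1h. None of the 22 was lower.

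NAC factors act in stress and senescence. Of 26 with enough reads, 13 rose and 1 fell (3.85%, beside 4.98% over all tested unigenes). The largest rise was that of c22275_Sye-1h_g1_i3, with 454 reads at YE-1h and 19 reads in the control, 16.8-fold (10.6 to 28.2). SmiContig30319 had 18.6 RPKM at YE-1h and 1.79 RPKM in the control, 10.4-fold. SmiContig18459 was the most abundant of the leading unigenes, with 169 RPKM at YE-1h and 22.9 RPKM in the control, 7.38-fold (6.59 to 8.28). The fall was that of SmiContig757, with 1.43 RPKM at YE-1h and 6.50 RPKM in the control, 0.22-fold (0.15 to 0.31). SmiContig4335 had 8.26 RPKM at YE-1h and 11.7 RPKM in the control, 0.71-fold, and was not called.

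MYB factors, some of which control phenylpropanoid genes, were higher in 29 of 29, and 15 rose (18 under TMM). One stood apart from the rest. SmiContig10176 had 279 reads at YE-1h and 3 reads in the control, a ratio of 65.5 (22.1 to 319), and 5.44 RPKM at MeJA-1h beside 16.7 RPKM at YE-1h. The next, c20394_Sye-1h_g1_i2, had 14.0 RPKM at YE-1h and 1.79 RPKM in the control, 7.81-fold (5.18 to 13.3), and SmiContig29550 had 10.6 RPKM at YE-1h and 1.49 RPKM in the control, 7.08-fold. More of the family was highest at MeJA-1h (18) than at YE-1h (7).

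The bHLH family, which includes the MYC factors of jasmonate signalling, was the family with the smallest share of rises among those with 9 or more unigenes tested. Of 39 with enough reads 7 rose (11 under TMM), 2 fell (1 under TMM), and 29 were highest at MeJA-1h. The share of falls, 5.13%, was near the 4.98% over all tested unigenes. The rises were led by SmiContig31071, with 14.7 RPKM at YE-1h and 1.33 RPKM in the control (interval of the fold change 7.73 to 16.5), and SmiContig31070, with 13.8 RPKM at YE-1h and 1.38 RPKM in the control, 10.01-fold. Those names are adjacent in the assembly, and whether they are copies of 1 gene was not tested. SmiContig30636 had 13.1 RPKM at YE-1h and 2.05 RPKM in the control, 6.37-fold (4.17 to 10.6). In the other direction, SmiContig15118 had 6.83 RPKM at YE-1h and 10.7 RPKM in the control, 0.64-fold (0.50 to 0.82), and c19204_Smj-1h_g1_i1 had 3.89 RPKM at YE-1h and 5.81 RPKM in the control, 0.67-fold. Unigenes matched by the study to Arabidopsis MYC2 were looked up after these values were seen. SmiContig10476 had 13.4 RPKM at YE-1h and 5.96 RPKM in the control, 2.24-fold (1.68 to 3.11), and c21649_Smj-1h_g2_i1 had 18.4 RPKM at YE-1h and 9.45 RPKM in the control, 1.94-fold, called under TMM only.

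C2H2 zinc finger factors rose in 13 of 19. A nearly identical pair led them: SmiContig28346 had 134 RPKM at YE-1h and 14.1 RPKM in the control, 9.50-fold, and SmiContig28345 had 130 RPKM at YE-1h and 13.9 RPKM in the control, 9.36-fold. SmiContig29042 had 33.3 RPKM at YE-1h and 7.82 RPKM in the control, 4.26-fold. Homeobox (HB) factors moved less, with 6 of 16 called. SmiContig28462 had 27.9 RPKM at YE-1h and 5.90 RPKM in the control, 4.73-fold (3.66 to 6.17), and SmiContig30877 had 44.0 RPKM at YE-1h and 12.8 RPKM in the control, 3.44-fold. SmiContig17434 had 2.77 RPKM at YE-1h and 1.33 RPKM in the control, 2.08-fold, lost with 1 RPKM added. On the lower side SmiContig19635 had 22.4 RPKM at YE-1h and 35.1 RPKM in the control, 0.64-fold. Of the C2C2-Dof factors 6 of 9 rose, by up to 3.05-fold in c24474_Sye-1h_g2_i7, with 14.7 RPKM at YE-1h and 4.81 RPKM in the control.

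The Tify family holds the JAZ repressors of jasmonate signalling. Of 4 unigenes 3 rose at YE-1h, from low levels. SmiContig7563 had 7.16 RPKM at YE-1h and 1.02 RPKM in the control, 7.02-fold (4.47 to 12.5), while its level at MeJA-1h was 143 RPKM. SmiContig11926 had 6.77 RPKM at YE-1h and 2.23 RPKM in the control, 3.03-fold, with 264 RPKM at MeJA-1h. SmiContig12974 had 5.98 RPKM at YE-1h and 2.22 RPKM in the control, 2.69-fold, with 151 RPKM at MeJA-1h. All 4 were highest at MeJA-1h. The fourth, c14867_Smj-0h_g1_i1, had 68.6 RPKM at YE-1h and 39.3 RPKM in the control, 1.74-fold, and 1475 RPKM at MeJA-1h, and was not called.

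In families with fewer members 33 of 72 unigenes rose and 3 fell, the falls being 2 MADS and 1 TCP, all under 100 reads. That share of falls, 4.17%, was near the 4.98% over all tested unigenes. The largest rise with 100 or more reads was in the G2-like unigene SmiContig26557, which had 14.9 RPKM at YE-1h and 1.30 RPKM in the control, 11.4-fold (6.53 to 21.8). The C3H zinc finger unigene SmiContig32381 was the most abundant of those named, with 170 RPKM at YE-1h and 46.9 RPKM in the control, 3.62-fold (3.43 to 3.82). A MADS unigene (SmiContig1914) had 14.9 RPKM at YE-1h and 4.58 RPKM in the control, 3.24-fold, and a GATA unigene (c20201_Sye-12h_g2_i3) had 17.3 RPKM at YE-1h and 6.01 RPKM in the control, 2.87-fold. With 100 or more reads, the leading rises of the FAR1, LOB, TUB, Orphans, PLATZ, mTERF, DBP and RWP-RK families lay between 2.08-fold and 2.61-fold. The MYB-related rise was SmiContig4954, the unigene also listed as *CYP76AH1*. In GRAS, CAMTA, Trihelix, EIL, GeBP and OFP no unigene rose under library totals (0 of 9 with enough reads), and the EIL unigene, at 1.99-fold, did under TMM.

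**Figure D5:**
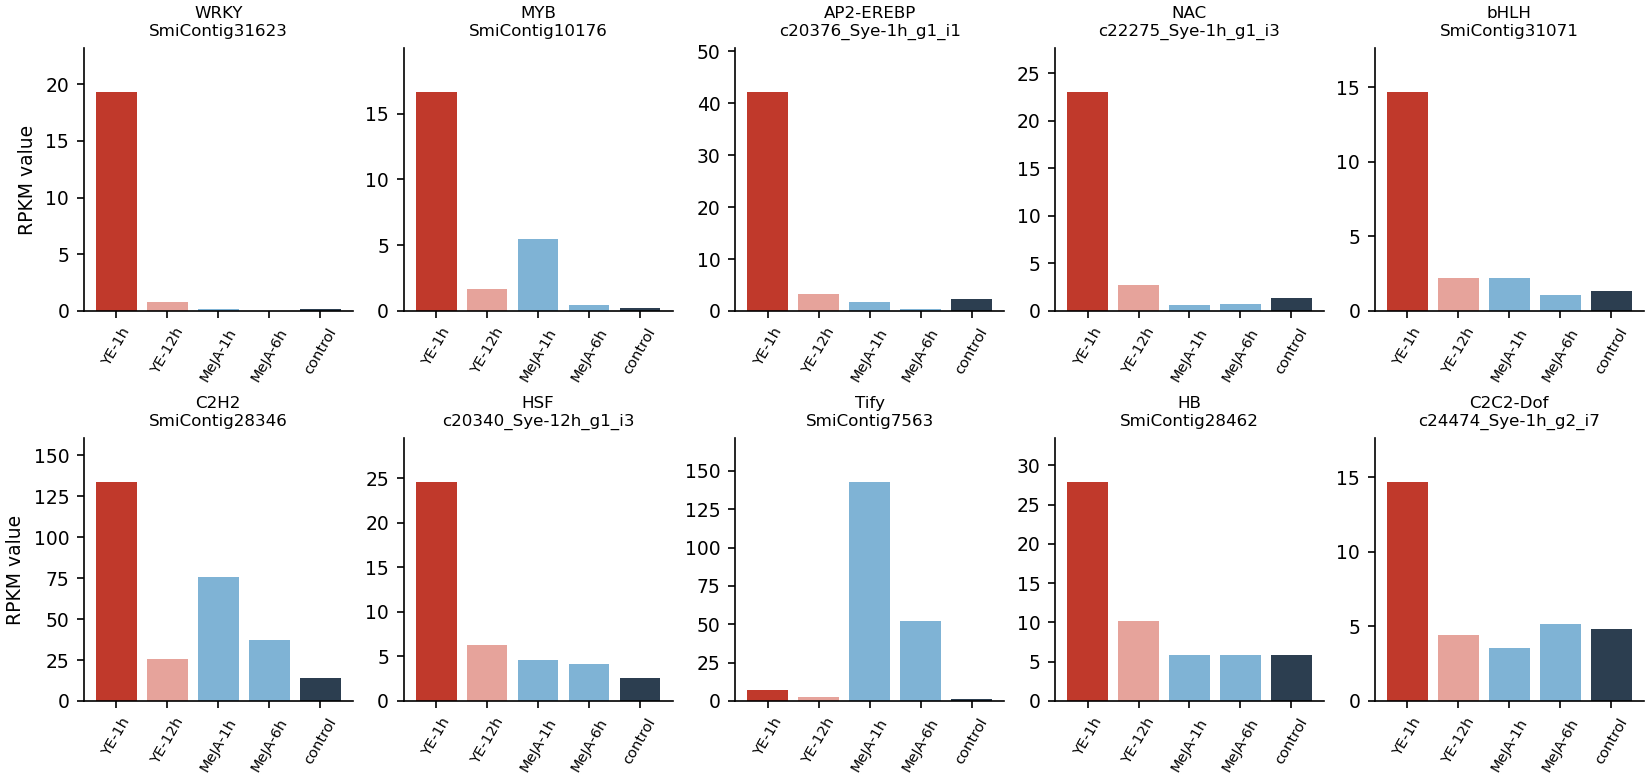
RPKM values in the 5 libraries for the unigene with the largest rise at YE-1h and 100 or more reads in each of 10 transcription factor families (bars start at 0, and each panel has its own scale). The YE-1h bar is the highest in 9 of 10 panels, the exception being the Tify unigene, with 143 RPKM at MeJA-1h. The unigenes were picked for their rise at YE-1h, so a high YE-1h bar is largely built into the choice.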

How the data were processed

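RNA of hairy roots was sequenced in 5 libraries of 3 mixed samples each. The authors filtered the reads, assembled unigenes with Trinity and deposited estimated counts per unigene as whole numbers, not normalized, and RPKM values scaled by unigene length and library total. The counting program was not given in the sources used here. In 30 of 48 low counts compared, the RPKM value implied at least 0.1 reads more than the count and in 0 over 0.1 fewer, so decimals appear dropped. Plain counts had been assumed, and the test was kept.

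Deposited RPKM values of YE-1h were divided by those of the control. For calls and medians 3 reads served as the floor of either library. The reads were tested with binomTest of edgeR 4.0.16 in R 4.3.3, and p-values were adjusted (Benjamini-Hochberg) across all unigenes that reached 30 reads in either library. Exact 95% intervals cover counting error only. The 5-library TMM factors and the size factors of DESeq2 1.42.0 were alternatives, with read minimums of 1 and 100, an FDR of 0.05, a pseudocount of 1 RPKM, summed unigenes, and edgeR's exact test at assumed coefficients of variation. Simulated data served to test the procedure. Python 3.11.15 with pandas 2.3.3, numpy 2.4.6, scipy 1.17.1 and matplotlib 3.10.9 did the rest.

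Members, lists and the naming rule were chosen with earlier results of these data known. Named were each pathway gene by its most abundant unigene, all candidates, the 3 largest rises and 2 smallest or falls per P450 group, and per large transcription factor family those with 100 or more reads. In smaller families it was the largest rise, and outside the lists the extremes with 1000 or more reads, or 100 or more where annotated. None of the 55588 unigene names matched a table of 42046 RefSeq genes (0 matches), and no genome positions or unigene sequences were used.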

Additional observations from a re-analysis of the deposited data

How the results depend on the processing

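Only 1 library stood for each condition, so no result here was tested against the variation between cultures. No paired analysis was possible because each group had 1 library. Unigenes under 30 reads in both libraries were not tested. The median over all tested unigenes turned from -0.14 to 0.0017 under TMM and to 0.009 under DESeq2 size factors. Both scalings also turned *C4H1* SmiContig7266 (0.040 and 0.047) and reductase SmiContig6622 (0.13 and 0.14), gave 2 rises in the phenolic acid pathway in place of 0, and left 1 of 2 falls among the candidates. Over 148 named unigenes each scaling kept 143 on the same side, made 2 pass, ended 1 call and turned 2.

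With a minimum of 100 reads 1038 unigenes fell in place of 2222, and 1 transcription factor in place of 6. With 1 RPKM added 1429 fell in all, 3 transcription factors fell, and the phenolic acid P450 list kept 0 rises. Of the 148 named, 6 lost their call and 142 did not. At an FDR of 0.05 the phenolic acid pathway had 1 rise. Summing unigenes by gene gave 19 tanshinone genes that rose and a phenolic acid median of -0.10 in place of 0.07.

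The assumed spread between libraries mattered most. By edgeR's exact test at a coefficient of variation of 0.2, 1438 unigenes rose and 404 fell. Rises and falls numbered 16 and 0 in the tanshinone pathway, 95 and 1 among transcription factors, 2 and 0 among candidates, and the phenolic acid P450 list had 0 rises. At 0.4, 100 rose and 5 fell in all, and 9 transcription factors and 2 tanshinone P450s rose. In the tanshinone pathway, the candidates and the phenolic acid P450s the rises and the falls were 0, as were the falls among transcription factors.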

Other observations

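Outside the lists, the study's table of elicited unigenes gives Arabidopsis matches for some, and it was at hand in part: 464 entries, of which 123 unigenes stood in none of the lists. The study chose them for responding in these libraries. The largest rises with 100 or more reads among those are given first. The match to squalene epoxidase SQE3 (SmiContig29831) had 258 RPKM at YE-1h and 40.8 RPKM in the control, 6.31-fold (5.93 to 6.72). The match to CAMS1 (SmiContig3082), an oxidosqualene cyclase in Arabidopsis, had 120 RPKM at YE-1h and 16.7 RPKM in the control, 7.21-fold (6.54 to 7.95). Both were also high at MeJA-1h, with 196 RPKM and 104 RPKM in that order. The match to the phospholipid-moving ATPase ALA1 (SmiContig21123) had 34.8 RPKM at YE-1h and 5.44 RPKM in the control, 6.41-fold. A pair matched to MLO12, of a family known from powdery mildew susceptibility, rose 4.98-fold (SmiContig29066) and 4.97-fold (SmiContig29067). The largest falls were all in matches to ALMT9, a vacuolar malate channel in Arabidopsis. The first, c22486_Smj-0h_g1_i3, had 55 reads at YE-1h and 175 reads in the control, 0.22-fold (0.16 to 0.30), SmiContig3871 was 0.30-fold and c9870_Smj-1h_g1_i1 was 0.30-fold.

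Among unigenes in no list and with 1000 or more reads, c23972_Sye-1h_g1_i1 had 1330 reads at YE-1h and 5 reads in the control, 170-fold (79.9 to 577), and SmiContig6295 had 1643 reads at YE-1h and 7 reads in the control, 154-fold (79.9 to 411). The largest falls were c20626_Smj-0h_g1_i2, with 24.3 RPKM at YE-1h and 120 RPKM in the control, 0.20-fold, and SmiContig2961, with 30.5 RPKM at YE-1h and 141 RPKM in the control, 0.22-fold.

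The share of calls went with the library named in a unigene's ID. Of 2977 tested unigenes with YE-1h in the name 475 rose and 31 fell, while of 3506 with the control in the name 90 rose and 317 fell. Among the 28951 with no library in the name 7.15% rose and 5.15% fell, beside 6.98% and 4.98% over all tested. The part of the assembly in the calls was not tested. Rises were also more frequent at high levels: 14.0% of 2130 unigenes with a mean RPKM value of 50 or more rose, and 5.21% of 1633 with a mean under 2. Falls were 4.37% and 5.08% in that order. The mean was taken over YE-1h and the control, so a rise itself lifts it, and the part of this was not tested.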
